A study of Homo sapiens with 17 samples.

Results

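The genes described here are the human WNT ligands, their frizzled receptors and 4 co-receptors. They comprise 33 of the 19974 protein-coding genes on chromosomes 1 to 22 and X: the 19 WNT ligands, the 10 frizzled genes FZD1 to FZD10, and LRP5, LRP6, ROR1 and ROR2. They were taken as a fixed family list, and a peak was assigned to a gene when its summit lay inside the RefSeq span of that gene (GRCh38.p14) or within 50 kb of either end, whatever other genes lay nearer. Binding was measured by ChIP-seq with a Flag antibody in U2OS, a human osteosarcoma cell line that carried each Flag-tagged factor under a doxycycline-inducible Tet-on construct.

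The factor groups were FOXA1, FOXA2 and FOXA3, each as the full-length protein and with its C-terminal domain (CTD) deleted, SOX2 at full length, and a fusion of SOX2 to the FOXA2 CTD. Each of the 8 groups had 2 biological replicates, and 1 input sample completed the set of 17. Every factor group was induced with doxycycline for 4 days, at 500 ng/ml by the treatment label, while the extraction protocol prints 500 ng/ul. All factors were therefore ectopic proteins in 1 cancer line, and expression of the WNT genes was not measured in these samples. The authors had combined both replicates of a group into 1 list of reproducible peaks, so there was 1 value per group and no test between groups. Library depth was unknown. Wilson 95% intervals below cover counting error over genes or peaks only, and not the spread between libraries.

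WNT ligands are secreted, lipid-modified glycoproteins that bind frizzled receptors, which are proteins with multiple membrane-spanning segments. With LRP5 or LRP6 as co-receptor, the complex recruits Dishevelled and Axin and stabilises β-catenin, which then acts on genes with TCF/LEF factors. ROR1 and ROR2 are receptor tyrosine kinase-like proteins that bind WNT5A and take part in signalling that does not depend on β-catenin. WNT signals and FOXA2 both act in the formation of definitive endoderm, and WNT signalling is known for its part in osteoblast differentiation and bone mass, the lineage closest to an osteosarcoma line. FOXA factors are forkhead proteins that can open closed chromatin, a property known as pioneer activity and shared by the HMG-box protein SOX2.

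A combined peak covered either end of 3 of the 33 genes (9.09%, interval 3.14 to 23.6), WNT2B, FZD1 and FZD3, against 16.4% of all coding genes. In the RefSeq promoter table, 24 of the 33 genes had an entry, with 27 entries in all. A combined peak overlapped the 250 bases before the start in 2 of these 27 entries (7.41%, interval 2.06 to 23.4), against 13.0% of the 35116 entries for all genes. These 2 stretches are printed because they carry the promoter peaks, 5′ to 3′, with the 21 bases around the summit in capitals, and in FZD1 also the SOX letters CTTTGT in capitals. A stretch from WNT5B is also printed because it was the single member entry with the forkhead letters, which are in capitals. WNT2B lies at chr1:112466291-112466540 (+), FZD1 at chr7:91264183-91264432 (+) and WNT5B at chr12:1617010-1617055 (+), all from RefSeq GRCh38.p14.
WNT2B: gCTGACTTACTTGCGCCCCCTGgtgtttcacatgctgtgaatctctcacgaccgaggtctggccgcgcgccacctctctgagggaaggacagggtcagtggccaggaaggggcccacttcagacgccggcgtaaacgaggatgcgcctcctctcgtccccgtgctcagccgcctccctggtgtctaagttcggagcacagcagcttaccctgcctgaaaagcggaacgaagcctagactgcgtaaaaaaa
FZD1: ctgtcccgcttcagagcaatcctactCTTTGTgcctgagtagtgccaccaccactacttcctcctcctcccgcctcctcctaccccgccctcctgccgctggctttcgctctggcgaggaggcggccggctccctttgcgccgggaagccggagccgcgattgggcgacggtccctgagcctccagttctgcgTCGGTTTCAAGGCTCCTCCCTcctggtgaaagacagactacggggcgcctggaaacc
WNT5B: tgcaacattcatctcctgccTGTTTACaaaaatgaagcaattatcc

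The WNT2B stretch was bound in the FOXA1 full-length list. That peak (chr1:112465906-112466589) had its summit 239 bases before the start and −log10 p values of 3.45 and 5.97 in the replicates. The FZD1 stretch was bound in the SOX2-FOXA2 CTD fusion list. Its peak (chr7:91263989-91264640) had its summit 47 bases before the start and −log10 p values of 4.04 and 3.29. The irreproducible discovery rate (IDR, described below) of this FZD1 peak was 0.678, a weakly reproducible call, against 0.104 for the WNT2B peak. The letters CTTTGT, counted as a SOX match, stood 224 to 219 bases before the FZD1 start and outside the capitals around the summit. FZD3 and LRP6 had no promoter entry. A FOXA1 full-length peak (chr8:28493837-28495599, −log10 p of 5.30 and 7.55) spanned the lower-coordinate end of FZD3, and a FOXA2 CTD-deleted peak (chr12:12267065-12268121) began just past the higher-coordinate end of LRP6. No combined peak covered the WNT5B stretch, in which TGTTTAC stood 26 to 20 bases before the start.

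Motif letters were counted on both strands over the same 250 bases. The forkhead letters TGTTTAC or TATTTAC were present in 1 of 27 member entries, against 5.27% of the entries for all genes. The SOX letters CATTGT or CTTTGT were present in 3 of 27, in FZD1, ROR2 and WNT8B, against 21.2% of all entries. Member promoters were also richer in G and C, with a median of 74.0% against 58.0% over all entries. The shares are descriptions of these letters in these windows.

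In the FOXA1 and FOXA2 lists, most of the 33 genes had a peak nearby. FOXA1 full length reached 22 members (66.7%, interval 49.6 to 80.2) and FOXA1 without its CTD reached 25 (75.8%, 59.0 to 87.2). FOXA2 full length reached 20 (60.6%, 43.7 to 75.3) and FOXA2 without its CTD reached 22 (66.7%). The same windows held a peak for 71.5%, 69.8%, 74.2% and 76.1% of all coding genes in these 4 lists, so each member share lay within its counting error of the background. FOXA3 full length reached 2 members (6.06%, 1.68 to 19.6) and FOXA3 without its CTD reached 4 (12.1%, 4.82 to 27.3), against 24.2% and 27.3% of all coding genes. The interval for full-length FOXA3 lay below its background. The SOX2 list had a peak at none of the 33 genes (interval to 10.4%), with 0.891% of all coding genes reached, so a count of 0 is what that background gives. The fusion list reached 8 members (24.2%, 12.8 to 41), against 25.6% of all coding genes.

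The lists differed in size and in their limits. They held 37532 and 50539 peaks for FOXA1, 45076 and 53415 for FOXA2, 6130 and 6813 for FOXA3, full length first and CTD-deleted second in each pair, 1375 for SOX2 and 7895 for the fusion. Of the SOX2 peaks, 120 lay outside long gene-free stretches of the chromosomes. The weakest peak kept had an irreproducible discovery rate (IDR, which rises as the ranks of a peak in the replicates disagree) of 0.200 and 0.0501 for FOXA1, 0.351 and 0.25 for FOXA2, 0.100 and 0.01 for FOXA3, 0.100 for SOX2 and 0.920 for the fusion.

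**Figure D1:**
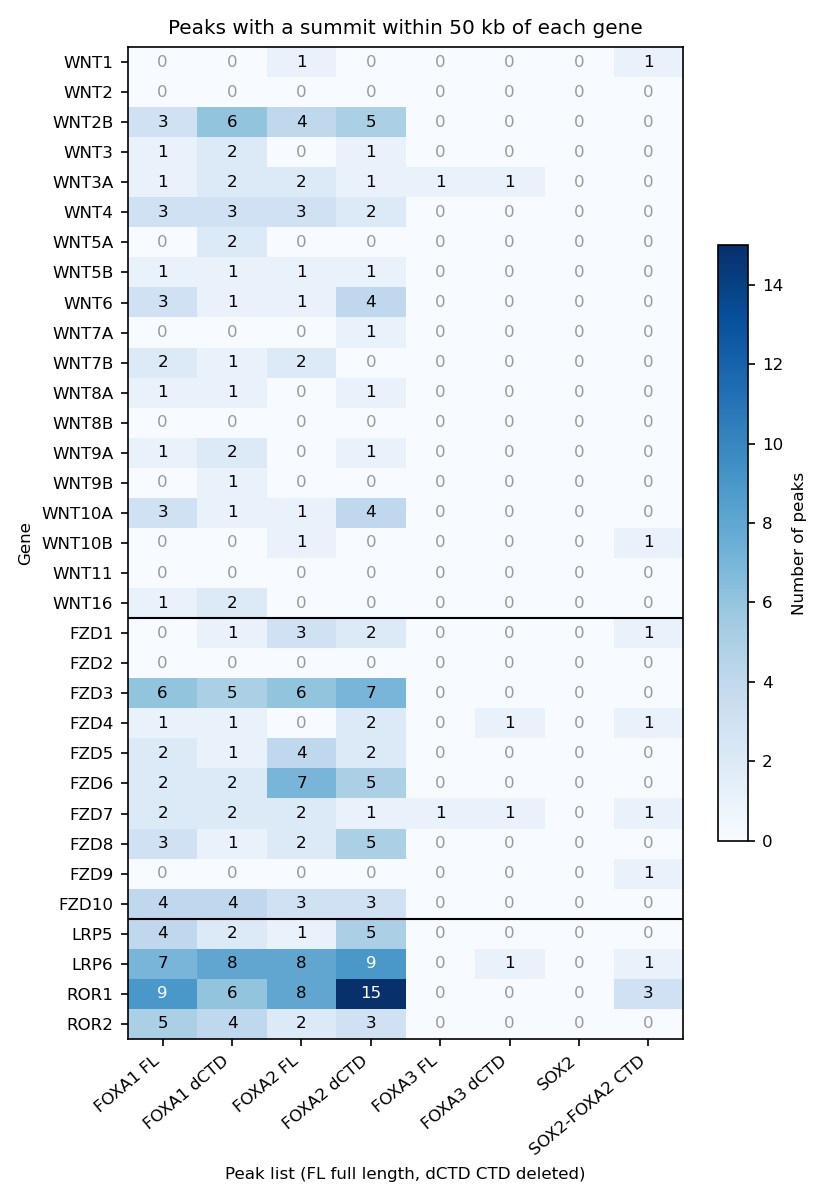
Number of peaks with a summit within 50 kb of each of the 33 genes (rows, in the order ligands, frizzled receptors, co-receptors) in each of the 8 combined lists (columns); colour and printed number both give the count. ROR1 holds 15 peaks in the FOXA2 CTD-deleted list, the FOXA3 columns are nearly empty, and the SOX2 column holds only 0.

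The ligands were the sparsest of the 3 roles. Of 19 WNT genes, 11 had a peak in the FOXA1 full-length list, 13 in the FOXA1 CTD-deleted list, 9 in the FOXA2 full-length list and 10 in the FOXA2 CTD-deleted list. The FOXA1 shares were 57.9% (36.3 to 76.9) and 68.4% (46.0 to 84.6), within counting error of 71.5% and 69.8% of all coding genes. The FOXA2 shares were 47.4% (27.3 to 68.3) and 52.6% (31.7 to 72.7). Both of these intervals lay below the 74.2% and 76.1% of all coding genes, though some neighbouring ligands shared peaks. Per length of window, the ligands held 7.20, 9.45, 6.30 and 7.65 peaks per Mb in these lists, against 13.4, 16.7, 15.7 and 18.7 over the windows of all coding genes. The 10 frizzled genes held 17.3, 14.7, 23.3 and 23.3 peaks per Mb, and the 4 co-receptors 18.7, 15.0, 14.2 and 23.9. Ligand windows thus held fewer peaks per Mb than receptor windows in each of the 4 lists. Gene length differed too: the median span was 29.3 kb for ligands, 5.74 kb for frizzled genes, 189 kb for co-receptors and 24.2 kb for all coding genes.

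**Figure D2:**
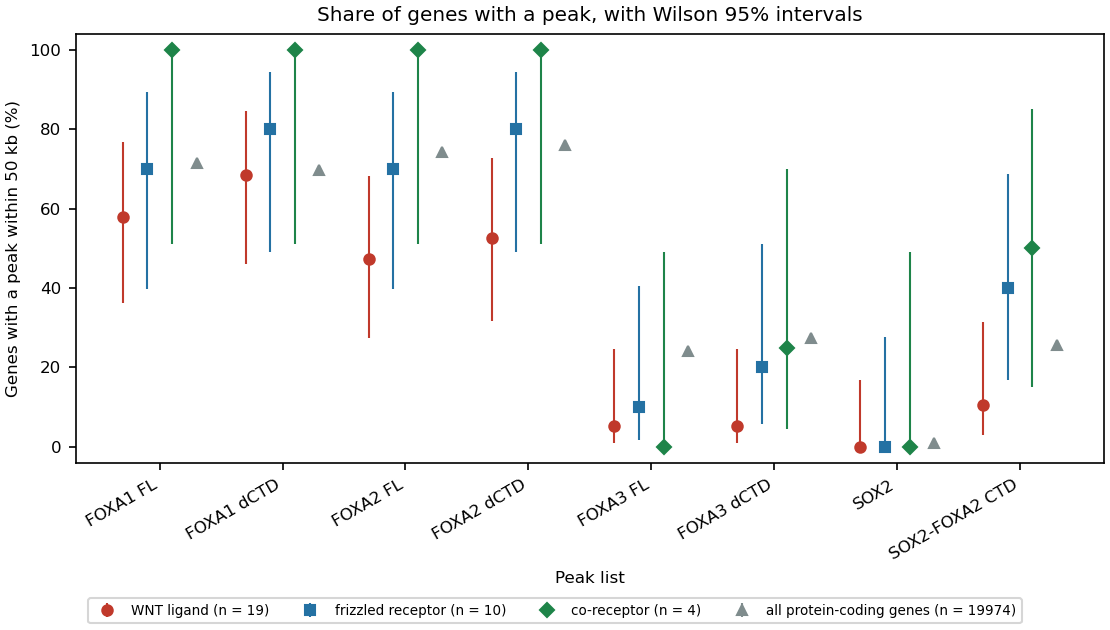
Percentage of genes with a peak within 50 kb, by role and list, with Wilson 95% intervals over genes; triangles give all 19974 protein-coding genes. The 4 co-receptors stand at 100% in the FOXA1 and FOXA2 lists, and the ligands lie between 47.4% and 68.4% there.

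WNT2B and WNT4 were the ligands with 10 or more peaks over the lists. WNT2B, a ligand of the β-catenin pathway (chr1:112466541-112530165), had 3 peaks for full-length FOXA1, 6 for FOXA1 without its CTD, 4 for FOXA2 full length and 5 for FOXA2 without its CTD. None of the 4 full-length FOXA2 peaks there overlapped a full-length FOXA1 peak. The strongest WNT2B peak of the FOXA1 CTD-deleted list (chr1:112563249-112563823, −log10 p of 9.08 and 10.2) was also the strongest of all member peaks that this list had and the full-length list lacked. It lay 33.3 kb past WNT2B and nearer to ST7L. WNT4, which acts in kidney and female reproductive tract development, had 3, 3, 3 and 2 peaks in the same order of lists. One WNT4 site, 47.0 to 47.3 kb from the gene and nearer to CDC42, was present in all 4 lists.

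WNT3A, a strong activator of β-catenin signalling, was the ligand reached by FOXA3. It had 1 peak in each FOXA3 list, which was the same deposited row (chr1:228109805-228110589, −log10 p of 8.88 and 9.16). The summit stood 49.0 kb from WNT3A, close to the edge of the window, and MRPL55 was the nearest coding gene. In the FOXA1 and FOXA2 lists WNT3A had 1, 2, 2 and 1 peaks.

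WNT5A, the ligand of ROR receptors, had 2 peaks in the FOXA1 CTD-deleted list and none in the other 7. One of them lay inside the gene (chr3:55494986-55495349, −log10 p of 4.44 and 9.59), and the other stood 45.9 kb away and nearer to ERC2. WNT7A and WNT9B likewise had a peak in 1 list each, WNT7A in FOXA2 CTD-deleted and WNT9B in FOXA1 CTD-deleted. WNT5B had 1 peak in each of the 4 FOXA1 and FOXA2 lists. WNT6 and WNT10A, which overlap by 0.117 kb on chromosome 2, shared their 3, 1, 1 and 4 peaks.

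The remaining ligands had at most 2 peaks in any list. WNT3, WNT8A and WNT9A had no full-length FOXA2 peak but had at least 1 in each of the other 3 FOXA1 and FOXA2 lists. WNT16 had 1 and 2 peaks in the FOXA1 lists and none for FOXA2. WNT7B had 2, 1, 2 and 0. WNT1 and WNT10B, neighbours 6.59 kb apart on chromosome 12, shared 1 full-length FOXA2 peak and 1 fusion peak. WNT2, WNT8B, WNT11 and the receptor FZD2 had no peak in any of the 8 lists, as had 10.8% of all coding genes.

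Among the receptors, FZD3, FZD6, FZD7, FZD8 and FZD10 had 10 or more peaks over the lists. FZD3 and FZD6 are the frizzled receptors best known for planar cell polarity. FZD3 had 6, 5, 6 and 7 peaks in the FOXA1 full-length, FOXA1 CTD-deleted, FOXA2 full-length and FOXA2 CTD-deleted lists. A site 30.8 to 30.9 kb from FZD3, nearer to FBXO16, held the strongest member peak of both the FOXA1 CTD-deleted list (14.6 and 17.0 as −log10 p in the replicates) and the FOXA2 full-length list (13.1 and 24.3). The same site had 31.1 and 12.2 for FOXA1 full length and 7.15 and 9.97 for FOXA2 without its CTD, and it stood at percentile 98.2, 98.3, 99.7 and 93.0 of strength in the FOXA1 full-length, FOXA1 CTD-deleted, FOXA2 full-length and FOXA2 CTD-deleted lists. FZD6 had 2, 2, 7 and 5 peaks, more in either FOXA2 list than in either FOXA1 list. These counts depended on the list limits, since the weakest IDR kept was 0.200 and 0.0501 for FOXA1. Full-length FOXA2 peaks at FZD6 with an IDR of 0.240 to 0.299 lay past the full-length FOXA1 limit. FOXA2 CTD-deleted peaks there with an IDR of 0.0932 to 0.160 lay past the FOXA1 CTD-deleted limit. All 5 FZD6 peaks of FOXA2 without its CTD overlapped one of full-length FOXA2.

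FZD8 had 3, 1, 2 and 5 peaks, and the largest count fell in the FOXA2 CTD-deleted list. Its FOXA2 CTD-deleted peaks with an IDR of 0.0632 to 0.216 lay past the FOXA1 CTD-deleted limit of 0.0501. FZD10 had 4, 4, 3 and 3. At FZD10 the 3 peaks of full-length FOXA2 all overlapped a full-length FOXA1 peak, and 3 of 4 peaks of FOXA1 without its CTD met one of the full-length protein. The 3 FOXA2 CTD-deleted peaks at FZD10 overlapped none of FOXA2 full length and none of FOXA1 CTD-deleted. Equal counts at FZD10 therefore stood for different places.

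FZD7, a frizzled receptor expressed in pluripotent stem cells (chr2:202033855-202038441), had the one member site found in all 6 FOXA lists. That site (chr2:202056499-202057190) stood 18.4 kb past the gene and nearer to KIAA2012. Its −log10 p values in the 2 replicates were 8.87 and 8.03 for full-length FOXA1, 6.92 and 7.83 for FOXA1 without its CTD, 3.46 and 2.94 for full-length FOXA2, and 7.47 and 6.22 for FOXA2 without its CTD. Both FOXA3 lists gave the same row there, with 7.17 and 22.6. Full-length FOXA2 was the lowest of these, although p-values also depend on the unknown depth. Within its own list, the site stood at percentile 91.9 and 81.8 of strength for FOXA1, full length first and CTD-deleted second. It stood at 72.5 and 90.7 for FOXA2 and at 35.0 and 40.4 for FOXA3, so the FOXA3 lists were lowest by that measure. The fusion peak at FZD7 lay elsewhere, 8.74 kb from the other end of the gene.

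FZD4, the receptor for norrin as well as WNTs, had 1, 1, 0 and 2 peaks in the FOXA1 and FOXA2 lists. It also had 1 peak in the FOXA3 CTD-deleted list (chr11:86903935-86904370, −log10 p of 5.61 and 9.16), 41.5 kb away and nearer to PRSS23, which the full-length FOXA3 list lacked. FZD1 had 0, 1, 3 and 2 peaks and FZD5 had 2, 1, 4 and 2. FZD9 had its single peak in the fusion list.

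The co-receptors had a peak in every FOXA1 and FOXA2 list. LRP6 (chr12:12116025-12267044) had 7, 8, 8 and 9 peaks. At LRP6, 3 sites were present in all 4 of these lists. One of them (chr12:12271952-12273567), 5.93 to 5.96 kb outside the gene, was the LRP6 peak of FOXA3 without its CTD. Its −log10 p values were 2.55 and 6.34 for FOXA1 full length against 7.34 and 12.9 without the CTD. For FOXA2 they were 2.94 and 2.39 at full length against 10.0 and 6.63 without the CTD, and for FOXA3 without the CTD they were 5.49 and 15.2. The other LRP6 sites did not share this order. At chr12:12136208-12137051 FOXA2 had 2.96 and 9.99 at full length and 4.33 and 2.58 without the CTD. At chr12:12111027-12112575 FOXA1 had 8.00 and 8.48 at full length and 4.08 and 13.7 without the CTD. LRP5 had 4, 2, 1 and 5 peaks.

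ROR1 (chr1:63774017-64181498), the longest member at 407.5 kb, had 9, 6, 8 and 15 peaks in the same order of lists. These counts, too, depended on the list limits. Most FOXA2 CTD-deleted peaks at ROR1, with an IDR of 0.0503 to 0.216, lay past the FOXA1 CTD-deleted limit of 0.0501. The 15 made up 19.7% of the FOXA2 CTD-deleted peaks in member windows. Of these 15, 6 overlapped a full-length FOXA2 peak and 4 overlapped a FOXA1 CTD-deleted peak. The strongest (chr1:64192063-64192506, 10.7 kb outside the gene) had −log10 p values of 9.32 and 17.3 without the FOXA2 CTD, while the full-length FOXA2 peak overlapping it had 3.62 and 1.78. Another, inside ROR1 (chr1:64072368-64072785, 4.79 and 12.7), was the strongest member peak that FOXA2 without its CTD had and full-length FOXA2 lacked. Per length, ROR1 was less exceptional, with 29.6 peaks per Mb in the FOXA2 CTD-deleted list against 35.9 for LRP6, 48.1 for FZD8 and 38.9 for FZD3.

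ROR2 had 5, 4, 2 and 3 peaks. Its FOXA1 full-length peak inside the gene (chr9:91750046-91751031, −log10 p of 13.1 and 15.7) was the strongest of that list in member windows. A peak of FOXA1 CTD-deleted (6.43 and 9.59) and one of FOXA2 full length (2.27 and 4.11) lay at the same place, and none of FOXA2 CTD-deleted did. At LRP5 and ROR2, as at FZD10, no FOXA2 CTD-deleted peak overlapped a FOXA2 full-length or FOXA1 CTD-deleted one.

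**Figure D3:**
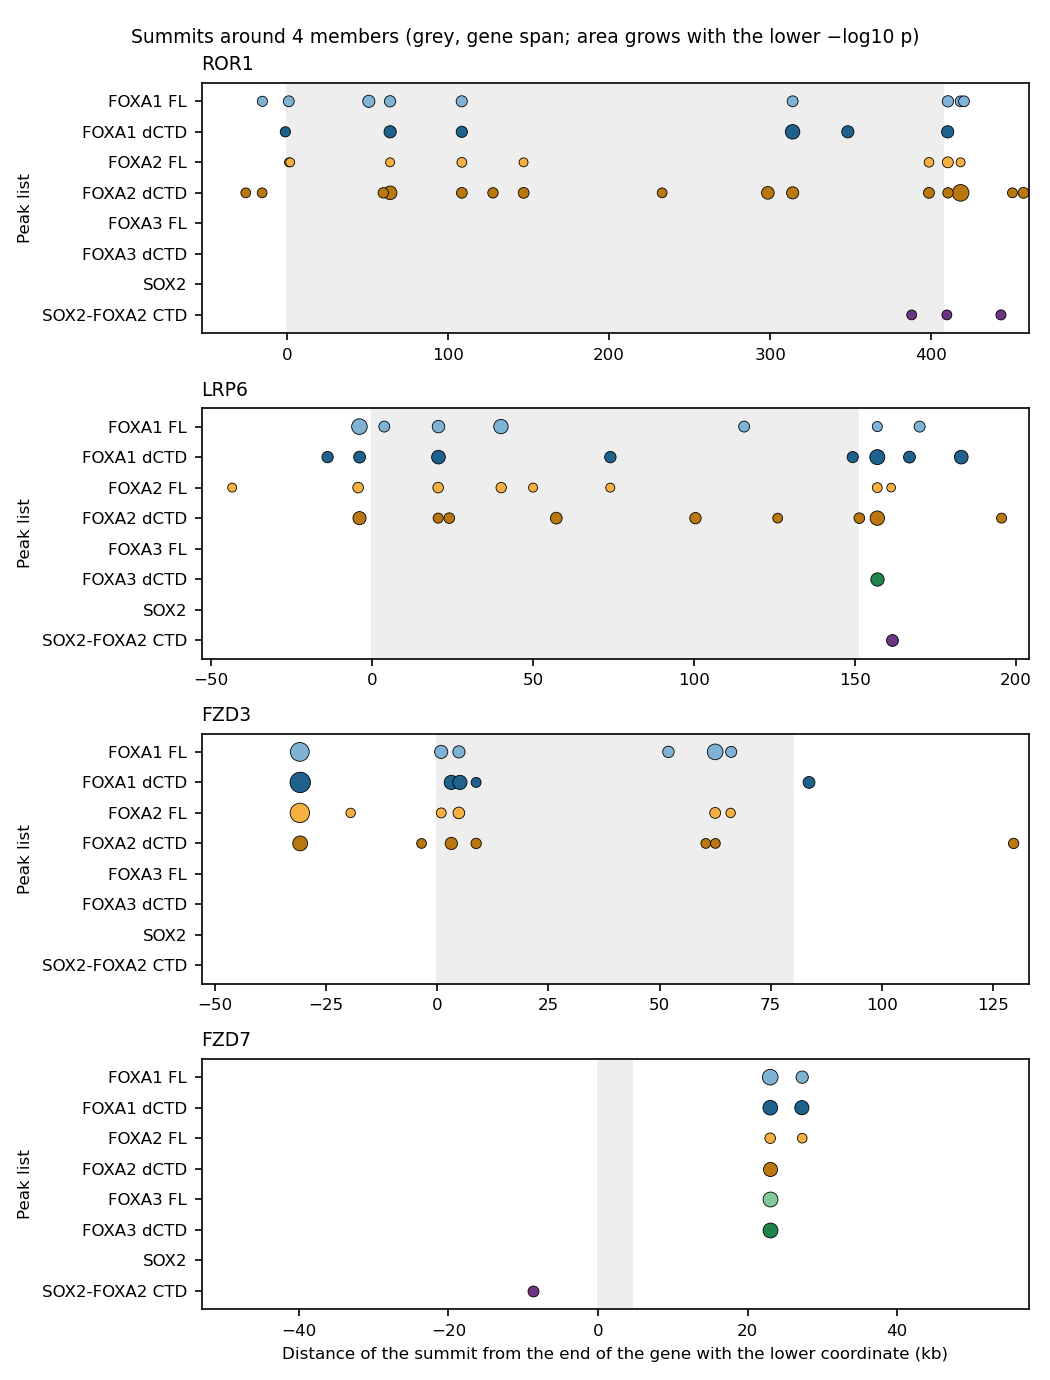
Summits around ROR1, LRP6, FZD3 and FZD7 by list; x is the distance in kb from the end of the gene with the lower coordinate, grey marks the gene, and the area of a point grows with the lower −log10 p of the replicates. The FZD7 site at 18.4 kb past the gene is present in all 6 FOXA rows, and the ROR1 row of FOXA2 dCTD carries 15 points.

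Some members had a peak on only one side of a full-length and CTD-deleted pair. Their counts here are out of 33 members, and no interval was computed for them. For FOXA1, 3 members had a peak without the CTD only, WNT5A, WNT9B and FZD1, while 9.69% of all coding genes did. No member had one at full length only, against 11.4% of all coding genes. For FOXA2, 5 members had a peak without the CTD only, WNT3, WNT7A, WNT8A, WNT9A and FZD4, against 9.61%. Another 3, WNT1, WNT7B and WNT10B, had one at full length only, against 7.78%, and WNT1 and WNT10B rest on the same peak. For FOXA3, FZD4 and LRP6 had a peak without the CTD only, against 3.31%, and no member had one at full length only, against 0.165%.

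The member windows covered 4.71 Mb. Without the CTD, FOXA1 had 58 peaks there against 61 at full length, a ratio of 0.951 (interval 0.665 to 1.36). Over all peaks on chromosomes 1 to 22 and X the ratio was 1.35, just under the upper bound of that interval. With windows of 100 kb the member ratio was 0.983 (0.759 to 1.27), and 1.35 then lay outside its interval. The value of 1.35 also counts peaks outside gene windows, which made up more of the CTD-deleted list. At the main window size, windows of all coding genes held 31045 FOXA1 CTD-deleted peaks (62.0% of those on these chromosomes) and 24896 full-length ones (66.9%). No such background was computed for windows of 100 kb, so a departure of the members from other genes was not tested. In member windows of the main size, FOXA2 had 76 against 60, a ratio of 1.27 (0.904 to 1.77) with 1.18 over all peaks. Without the ROR1 window the FOXA2 ratio was 1.17. FOXA3 had 4 against 2, a ratio of 2.00 (0.429 to 9.33) with 1.11 over all peaks. With both lists held to whichever IDR limit was stricter, the FOXA1 ratio became 3.41 (2.00 to 5.82, 58 against 17 peaks, 4.38 over all peaks) and the FOXA2 ratio 1.81 (1.24 to 2.63, 76 against 42 peaks, 1.69 over all peaks). The ratio thus depended on the limit, and member windows and all peaks moved the same way.

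**Figure D4:**
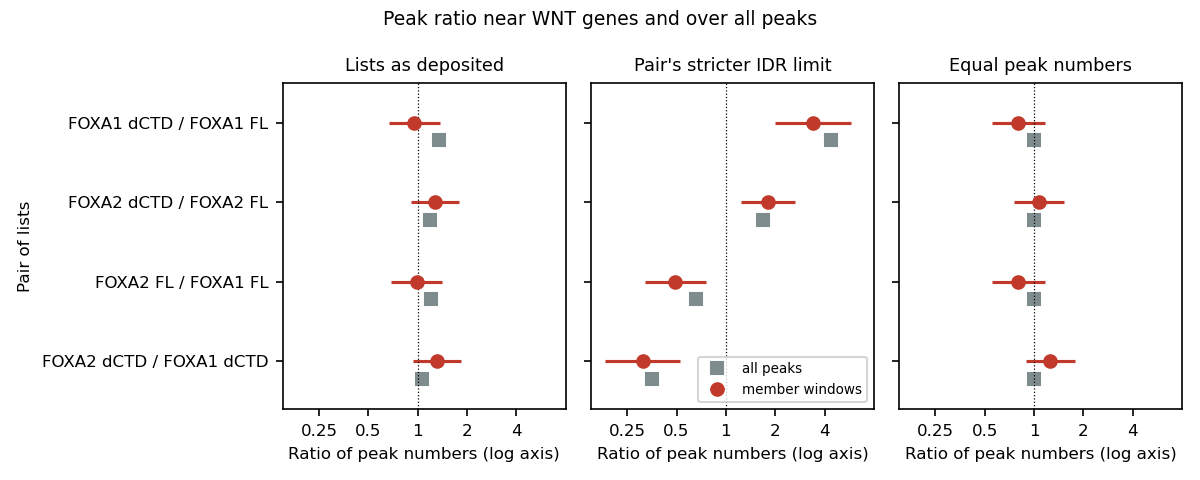
Ratio of peak numbers between 2 lists on a log axis, in member windows (circles, with Wilson 95% intervals) and over all peaks (squares), in 3 panels: lists as deposited, both lists held to the stricter IDR limit, and both reduced to the same number of peaks. The FOXA2 to FOXA1 ratio without the CTD is 1.31 as deposited and 0.310 at the stricter limit.

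Sharing was also counted by place, which needs overlapping peaks, while a shared gene needs only a peak of each list anywhere in its window. Of the 58 FOXA1 CTD-deleted peaks in member windows, 29 (50.0%, interval 37.5 to 62.5) overlapped a full-length peak by at least 1 bp, against 41.7% of all peaks of that list. In the other direction it was 28 of 61 (45.9%, 34.0 to 58.3), against 56.0%. With windows of 10 kb this full-length FOXA1 share was 37.5% (22.9 to 54.7), below 56.0%. With windows of 100 kb the FOXA1 CTD-deleted share was 52.6% (43.5 to 61.6), above 41.7%. The intervals of the other FOXA1 alternatives included the value for all peaks. For FOXA2, 23 of 76 peaks without the CTD (30.3%, 21.1 to 41.3) met a full-length one, against 43.2% of all peaks. In the other direction it was 23 of 60 (38.3%, 27.1 to 51.0), against 51.3%. Both FOXA2 shares lay below the value for all peaks by slightly more than their counting error, but not under every alternative. With windows of 10 kb (28.6%, 17.2 to 43.6, and 41.4%, 25.5 to 59.3) and at the stricter IDR limit (25.0%, 16.6 to 35.8, against 35.3%, and 45.2%, 31.2 to 60.1, against 59.9%) both intervals included the value for all peaks. With windows of 100 kb (35.8%, 28.2 to 44.1) the CTD-deleted share did so too, as did the full-length share with equal numbers of peaks (35.0%, 24.2 to 47.6, against 46.8%). The full-length share with windows of 100 kb still lay below (41.2%, 32.7 to 50.2, against 51.3%). So did the CTD-deleted share with equal numbers of peaks (32.8%, 22.6 to 45.0, against 46.7%).

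**Figure D5:**
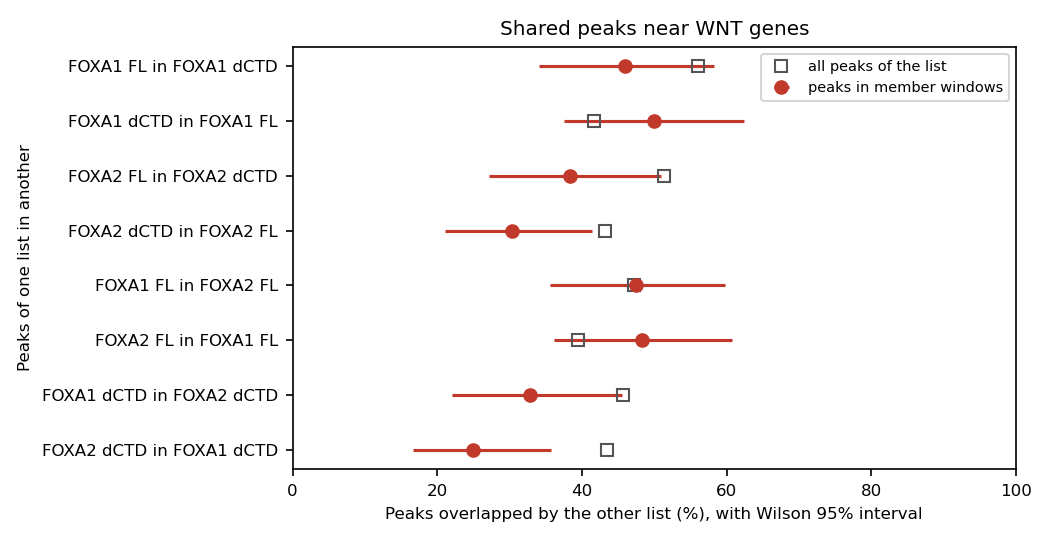
Percentage of the peaks of one list that overlap a peak of another, in member windows (circles, Wilson 95% intervals) and over the whole list (squares). The lowest circle is FOXA2 dCTD in FOXA1 dCTD, at 25.0% against 43.4% for all peaks.

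The paralogs FOXA1 and FOXA2 both reached 17 of the members at full length and 21 without the CTD. At full length, WNT1, WNT10B and FZD1 had a FOXA2 but no FOXA1 peak (3 members, 11.0% of all coding genes), and WNT3, WNT8A, WNT9A, WNT16 and FZD4 had a FOXA1 but no FOXA2 peak (5 members, 8.28%). Without the CTD, WNT7A had a FOXA2 but no FOXA1 peak (1 member, 12.9%), and WNT5A, WNT7B, WNT9B and WNT16 had a FOXA1 but no FOXA2 peak (4 members, 6.67%). The 4 lists all had a peak at 16 members (48.5%), against 53.2% of coding genes. These 16 included the 4 co-receptors, 6 of the frizzled genes (FZD3, FZD5, FZD6, FZD7, FZD8 and FZD10) and 6 ligands (WNT2B, WNT3A, WNT4, WNT5B, WNT6 and WNT10A).

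Between paralogs, peak numbers in member windows were 60 against 61 at full length, a FOXA2 to FOXA1 ratio of 0.984 (0.690 to 1.40) with 1.20 over all peaks. Without the CTD the ratio was 1.31 (0.933 to 1.84) with 1.06 over all peaks. At the stricter IDR limit these became 0.492 and 0.310, with 0.658 and 0.353 over all peaks, so the order of the paralogs without the CTD turned with the limit. At full length 29 of 60 FOXA2 peaks (48.3%) overlapped a FOXA1 peak, against 39.5% of all peaks. Without the CTD 19 of 76 FOXA2 peaks (25.0%, 16.6 to 35.8) overlapped a FOXA1 peak, against 43.4%. In the other direction 19 of 58 FOXA1 peaks did (32.8%, 22.1 to 45.6), against 45.7%. At the stricter limit the first of these became 61.1% of 18 peaks (38.6 to 79.7), against 68.1% of all peaks. Its interval lay below the value for all peaks with windows of 10 kb (23.8%, 13.5 to 38.5) and 100 kb (31.4%, 24.2 to 39.6). The same held with equal numbers of peaks (24.7%, 16.2 to 35.6, against 44.4%). Of the alternatives in the other direction, only equal numbers gave an interval below that value (31.0%, 20.6 to 43.8, against 44.4%).

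FOXA3 was the paralog with the fewest member peaks. FOXA2 and FOXA3 without their CTD had 76 and 4 peaks in member windows, a ratio of 19 (7.22 to 50.0), with 7.82 over all peaks. All 4 FOXA3 CTD-deleted peaks, at WNT3A, FZD4, FZD7 and LRP6, overlapped a FOXA2 CTD-deleted peak, as did 78.5% of all peaks of that list. At an IDR of at most 0.01 the counts were 7 and 4, a ratio of 1.75 with 0.955 over all peaks. The full-length FOXA3 list is not independent of the CTD-deleted one. Of its 6130 rows, 5012 (81.8%) also stood, unchanged, in the CTD-deleted list. Both member peaks of full-length FOXA3, at WNT3A and FZD7, were such rows, and none of its other 1118 rows fell in a member window.

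The 8 lists together marked 164 separate sites in member windows. Of these, 103 (62.8%) appeared in 1 list only, against 54.4% of the sites on chromosomes 1 to 22 and X. The FOXA2 CTD-deleted list alone accounted for 39 (23.8%, against 17.8%), FOXA1 CTD-deleted for 21 (12.8%, against 13.0%), FOXA2 full length for 19 (11.6%, against 10.7%), FOXA1 full length for 17 (10.4%, against 8.43%) and the fusion for 7 (4.27%, against 4.34%). A set of 10 sites (6.10%, against 8.71%) were in all 4 FOXA1 and FOXA2 lists: 3 at ROR1, 3 at LRP6, and 1 each at WNT4, FZD3, FZD6 and FZD7. Member peaks were of ordinary strength for their lists. The median −log10 p, taking the lower replicate, was 4.08 and 4.44 for the FOXA1 lists and 2.09 and 2.80 for the FOXA2 lists, against 4.08, 4.34, 2.24 and 2.96 over the whole lists. Between 31.0% and 38.3% of them lay inside the member gene in these 4 lists, and for 58.6% to 67.2% the member was the nearest coding gene.

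SOX2 alone had no member peak in its combined list, and the fusion with the FOXA2 CTD had 9, near WNT1, WNT10B, FZD1, FZD4, FZD7, FZD9, LRP6 and ROR1. These 8 members had a fusion peak and no SOX2 peak, as had 24.9% of all coding genes. No member showed the reverse, as against 0.180%. The strongest fusion peak (chr12:48946118-48946551, −log10 p of 6.68 and 4.28) stood 32.0 kb from WNT1 and 19.1 kb from WNT10B, nearer to ARF3. ROR1 had 3 fusion peaks, of which 1 lay inside the gene, 1 stood 2.21 kb outside it at a site also bound in the FOXA1 and FOXA2 lists, and 1 stood 35.8 kb away. The peaks at FZD1, FZD4 and FZD9 stood 0.047, 0.562 and 4.395 kb from an end of the gene.

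The IDR of the 9 fusion peaks ran from 0.238 to 0.905, above the weakest IDR of 0.100 in the SOX2 list, and none of the 9 (interval to 29.9%) was left when the fusion list was held to the SOX2 limit. Of all 7844 fusion peaks on chromosomes 1 to 22 and X, 774 (9.87%) were left there, against 1365 for SOX2. Of the 9, 2 overlapped a full-length FOXA2 peak, against 16.6% of all fusion peaks, and none overlapped a FOXA3 peak, against 13.9% (full length) and 11.8% (CTD-deleted) of all fusion peaks, both inside the interval of 0 of 9 (to 29.9%).

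The rest of the pathway was grouped in lists that share no gene with the members. The shares of all coding genes given above for the 8 lists, 71.5%, 69.8%, 74.2%, 76.1%, 24.2%, 27.3%, 0.891% and 25.6%, are the background for these counts too. Of 29 genes for secretion and extracellular control, such as the acyltransferase PORCN, the carrier WLS and the antagonist DKK1, 23, 22, 25 and 24 had a peak in the FOXA1 full-length, FOXA1 CTD-deleted, FOXA2 full-length and FOXA2 CTD-deleted lists. FOXA3 full length reached 10 and FOXA3 without its CTD 11 of them, SOX2 none and the fusion 9. Of 14 cytoplasmic genes, such as CTNNB1 (β-catenin), APC and DVL2, the counts were 10, 11, 14, 12, 4, 5, 1 and 5 in the same order of the 8 lists, the SOX2 peak being at VANGL1, a planar polarity protein. Of 10 nuclear genes, such as LEF1 and TCF7L2, they were 8, 8, 8, 9, 4, 4, 0 and 5. Of 9 common target genes, such as AXIN2 and SP5, they were 5, 5, 3, 6, 1, 1, 0 and 2. In percent, FOXA3 reached 34.5% and 37.9% of the secretion and extracellular genes, against 24.2% and 27.3% of all coding genes. It reached 28.6% and 35.7% of the cytoplasmic genes, 40% and 40% of the nuclear genes, and 11.1% and 11.1% of the target genes. No interval was computed for these small lists, so a departure from the background was not tested. The ubiquitin ligase ZNRF3, which removes frizzled receptors from the membrane, had 11, 7, 14 and 10 peaks in the FOXA1 and FOXA2 lists and 3 in each FOXA3 list; it is named here after its values were seen.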

How the data were processed

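Flag ChIP-seq peak lists from 8 U2OS factor groups, 2 replicates each, were analysed. Per the submitters' processing notes, FastQC 0.10.1, Trim Galore, Bowtie2 2.4.4, SAMtools 0.1.18, MACS2 and deepTools 2.4.1 were used with the build hg38. The IDR limit and the control are not given in the sources used here. The authors deposited 14 lists, of which 10 were used and 4 were byte-for-byte copies. In the 8 combined lists the deposited score is 125 times log2 of 1 over the IDR, capped at 1000, so a score of 830 marks an IDR of 0.01. The deposited −log10 p of each replicate carries no replicate number. The 2 first-replicate lists also give the authors' fold enrichment (a ratio) and −log10 q. These values are the authors' own.

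Peaks were read with Python 3.11.15 and pandas 2.3.3. Gene spans and promoters came from RefSeq GRCh38.p14, whose gene table gives no exons. Member windows were merged for counts of peaks and for peaks per Mb. A peak's strength is the lower −log10 p of both replicates, and sharing needs an overlap of at least 1 bp. Intervals are Wilson 95%. Counting was tested on simulated peaks. Alternatives were windows of 10 and 100 kb, an IDR of at most 0.01, the stricter IDR limit of a pair, equal numbers of peaks, the strongest 1000 peaks outside gene-free stretches, and the first replicate alone. Groups came from sample titles. The members and the pathway lists were chosen with earlier results of these data known. Given with the count in every list were members with 10 or more peaks or with a FOXA3, SOX2 or fusion peak. Peaks were named by position where strongest in their list or strongest among those the other list of a pair lacks, and further sites were named after their values were seen. Members without any peak were listed by name.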

Additional observations from a re-analysis of the deposited data

Results flagged for a closer look

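The first-replicate lists of SOX2 and of the fusion, which no comparison above used, held peaks in member windows. SOX2 had 20 of its 13977 first-replicate peaks there, at 10 members (30.3%, against 30.8% of all coding genes). The fusion had 87 of 42705, at 22 members (66.7%, against 67.0%). The fold enrichment over local background ran from 2.24 to 6.94 for SOX2 and from 2.01 to 6.89 for the fusion. At a q-value of at most 0.05, 1 of the 20 (5.00%, interval 0.888 to 23.6, against 10.4% of all SOX2 peaks) and 26 of the 87 (29.9%, 21.3 to 40.2, against 19.9% of all fusion peaks) were left. These are calls of 1 library. The 1 SOX2 peak lay inside WNT2B (chr1:112468288-112469199, −log10 p of 11.2, fold 6.94), and the fusion had a peak at the same place (7.98, fold 5.98). Of the 20 SOX2 peaks, 18 (90.0%, against 74.8% of all SOX2 peaks) overlapped a fusion peak, and 7 of the 9 combined fusion peaks were found in the first replicate. The strongest first-replicate fusion peak stood at ROR1 (chr1:63863145-63864064, −log10 p of 10.2, fold 6.89).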

How the results depend on the processing

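Of 99 alternative values of 22 results, 62 stayed within 1.5 times the main count or within the counting interval; the other 37 follow. Members with a peak within 10 kb numbered 12, 11 and 12 for FOXA1 full length, FOXA1 CTD-deleted and FOXA2 full length, 0 and 1 for FOXA3 full length and CTD-deleted, and 5 for the fusion. Within 100 kb they numbered 7 and 9 for FOXA3 and 14 for the fusion. At an IDR of at most 0.01 they numbered 3 for FOXA1 full length, 5 for FOXA2 CTD-deleted and 0 for the fusion. Among the strongest 1000 peaks they numbered 2 and 1 for FOXA1, 1 and 0 for FOXA2, 0 and 0 for FOXA3 and 5 for the fusion. Without the shared rows FOXA3 full length had 0. The first replicate alone gave 10 for SOX2 and 22 for the fusion, and the SOX2 limit gave 0 for the fusion.

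With both lists held to the stricter of their limits, the CTD-deleted to full-length ratio was 3.41 for FOXA1 and 1.81 for FOXA2, the FOXA2 to FOXA1 ratio 0.492 at full length and 0.310 without the CTD, and the FOXA2 to FOXA3 ratio 1.75. At an IDR of at most 0.01 the FOXA1 ratio was 11.0, the FOXA2 to FOXA1 ratio without the CTD 0.212 and the FOXA2 to FOXA3 ratio 1.75, and with equal numbers the last was 1.5. The FOXA1 ratio and the FOXA2 to FOXA1 ratio without the CTD thus turned to the other side of 1, though neither main interval excluded 1. At the stricter limit, chosen for overlaps after seeing the data, sharing was 20.7% and 70.6% for FOXA1 CTD-deleted in full length and the reverse (17.9% and 78.2% of all peaks), 80.0% (62.7 to 90.5) for full-length FOXA2 in FOXA1 (51.8%), and 61.1% and 19% for FOXA2 in FOXA1 without the CTD and the reverse (68.1% and 24.2%). Fewer peaks enter under each narrower limit; other causes were not tested. The ROR1-free ratios and the fusion at the SOX2 limit were also added after seeing the data.

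Not run for want of peaks were full-length FOXA2 at an IDR of at most 0.01 (0 peaks left) with its ratios, SOX2 at 1000 peaks (120 present), the fusion to SOX2 ratio of the combined lists, and the FOXA3 ratio at 10 kb or without shared rows. No paired analysis was possible because each group has 1 combined list and its replicate columns carry no number.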
